A study of Mus musculus with 6 samples.

Results

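Sphingolipid and ceramide metabolism was followed through 38 named genes, from serine palmitoyltransferase to ceramide, sphingomyelin and sphingosine phosphate, chosen by gene symbol in a table of 23399 genes. The table held 37 of the 38, and Sptlc3 was not analysed here. Of the 37, 34 had enough counts to be tested, among 14987 tested genes in all, while Cers1, Cers3 and Acer2 had too few. The cells were CMT93, an established line from a mouse colorectal carcinoma labelled wild type, grown as spheroids over soft agar with a little Matrigel. One group of 3 received palmitate, a saturated fatty acid dissolved in ethanol and bound to bovine serum albumin (BSA), at 200 µM. The control group of 3 received ethanol and BSA alone. In both groups the exposure ran for 1 week in monolayer and then for 5 days as spheroids. All 6 samples come from 1 line, and the labels do not say whether the samples of a group were separate cultures. The p-values therefore reflect the spread among these 6 libraries, which could be of technical origin.

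Sphingolipid synthesis starts when serine palmitoyltransferase joins serine to palmitoyl-CoA, the activated form of the fatty acid given here. Later enzymes reduce the product, attach another fatty acid and add a double bond to make ceramide, a membrane lipid that slows growth and promotes cell death in many settings. Ceramide is converted to sphingomyelin or to sugar-bearing lipids, or is cut to sphingosine, whose phosphate is a signalling lipid and the only form through which the pathway ends in breakdown.

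Total counts were 18898896 to 21851987 per vehicle library and 22516639 to 22852940 per palmitate library, so each palmitate library was the deeper. The sphingolipid genes took 0.303 to 0.305% of all counts with vehicle and 0.285 to 0.288% with palmitate. Levels are given as CPM (counts divided by the TMM-scaled library total), and a gene was called when edgeR's quasi-likelihood test, two-sided, gave a Benjamini-Hochberg adjusted p below 0.05 over all tested genes. Of 10 intestinal epithelial markers 9 were in the table, of which 2 were called higher and 4 lower, and their summed level was 7299 to 7374 CPM with vehicle and 6677 to 6773 CPM with palmitate. The 7 goblet cell markers summed to 70.7 to 74.5 CPM with vehicle and 25.9 to 28.8 CPM with palmitate. Of the 4 tested, 3 (Spdef, Fcgbp and Agr2) were called lower. The mucin gene Muc2 was not called (log2 fold change -0.20, edgeR adjusted p = 0.323). The other goblet cell markers had too few counts to be tested. Tff3 had 1, 1 and 4 counts with vehicle and 0 in each palmitate library. Clca1 had 4, 8 and 2 counts with vehicle and 5, 5 and 7 with palmitate. Zg16 had 4, 6 and 2 counts with vehicle and 8, 4 and 4 with palmitate. The tuft cell markers summed to 21.4 to 22.1 CPM with vehicle and 25.6 to 26.4 CPM with palmitate, with 1 of 4 tested called higher and 2 lower. Dclk1 rose from a mean of 12.8 to 23.3 CPM, while Trpm5 fell from 6.63 to 0.710 CPM and Sh2d6 from 1.72 to 1.11 CPM. The fibroblast markers summed to 1.339 to 2.05 CPM with vehicle and 0.976 to 1.101 CPM with palmitate, the leukocyte markers to 0.910 to 1.21 and 0.484 to 0.626 CPM, and the endothelial markers to 3.23 to 3.55 and 2.00 to 2.55 CPM. Among the fibroblast markers only Col1a1 was tested, and it was called lower (26, 37 and 28 counts with vehicle, 16, 15 and 17 with palmitate). Dcn and Pdgfra, defining fibroblast genes, went the other way at very low counts. Both had 0 counts with vehicle, and with palmitate Dcn had 1, 2 and 3 and Pdgfra 2, 2 and 2. Of the leukocyte markers only Ptprc was tested, and it was called lower (mean 0.836 to 0.266 CPM). Csf1r, too low to be tested, went from 0.192 to 0.267 CPM. Of the endothelial markers Cdh5 was called lower (2.21 to 1.45 CPM) and Tek was not called. Pecam1, too low to be tested, went from 0.228 to 0.266 CPM. The 4 enteroendocrine markers were not analysed here. The part of these marker lists in the results below was not tested, and in bulk RNA fewer cells of a type and less RNA per cell cannot be told apart.

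Spheroids grown with palmitate had 5.22-fold less message for Sptssb, a small subunit of serine palmitoyltransferase. They also had less for the sphingomyelinase genes Smpd3 and Smpd2, the sphingosine phosphate exporter gene Spns2 and the ceramide synthase gene Cers6. They had slightly more for the catalytic subunit gene Sptlc2, the feedback inhibitor gene Ormdl3, the acid ceramidase gene Asah1 and the galactosylceramidase gene Galc. Of the 34 tested genes 9 were called higher (26.5%, against 27.4% of all tested genes) and 13 lower (38.2%, against 25.4% of all tested genes). In either direction 22 of 34 were called (64.7%, against 52.8% of all tested genes). The median log2 fold change of the 34 was -0.02, against 0.00 for all tested genes, and the median size of the change, whatever its sign, was 0.13 on the log2 scale, against 0.15 for all tested genes. The groups did not overlap for 24 of the 34 (70.6%, against 57.8% of all tested genes), 10 of them higher with palmitate (29.7% of all tested genes) and 14 lower (28.1% of all tested genes).

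Most of these changes were small. Against a minimum change of 1.2-fold, glmTreat of edgeR called 5 of the 34 lower (Sptssb, Smpd3, Spns2, Smpd2 and Cers6), where 8.72% of all tested genes were called lower. It called 0 of the 34 higher, where 6.46% of all tested genes were called higher. Without a minimum change, edgeR called 9 higher and 13 lower, as above. Limma-voom called 8 higher (27.3% of all tested genes) and 12 lower (25.4% of all tested genes), and DESeq2 6 higher (20.6% of all tested genes) and 11 lower (16.9% of all tested genes).

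**Figure D1:**
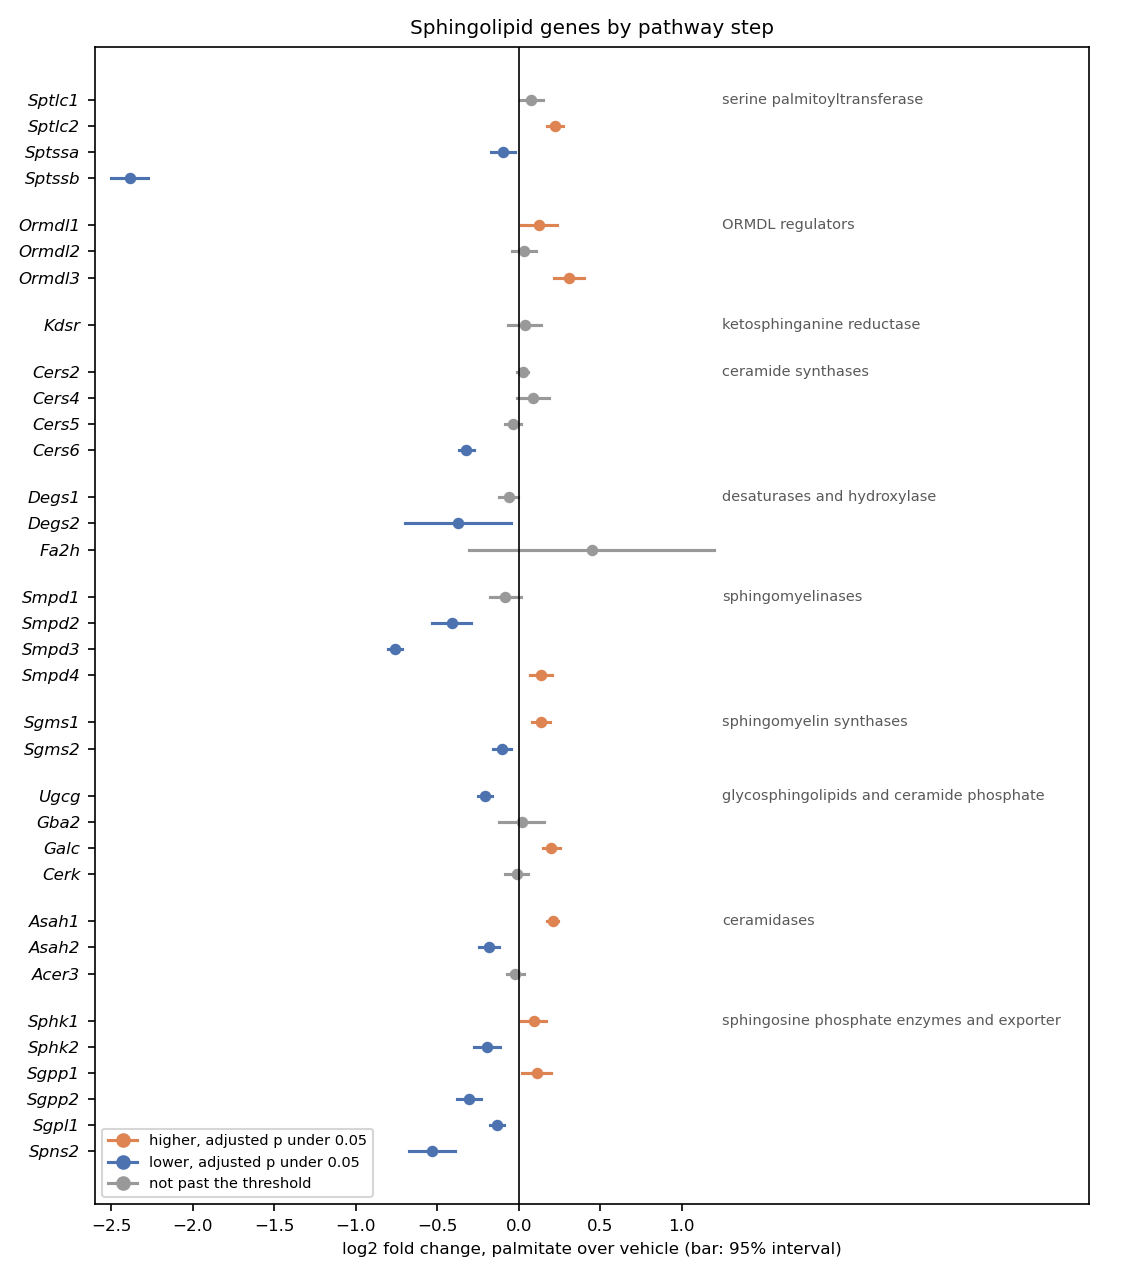
Log2 fold change of each tested sphingolipid gene, palmitate over vehicle, on the horizontal axis, grouped from top to bottom by pathway step; points are estimates from 3 libraries a group, bars are 95% intervals, and colour marks genes called higher, called lower or not called. Sptssb stands far to the left at -2.39, while the other called genes lie between -0.76 (Smpd3) and 0.31 (Ormdl3).

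The small-subunit genes Sptssb and Sptssa are shown first by the bases before their start sites, because they are close relatives that differed widely in response. Those of Spns2 are shown with them because its change was among the larger ones. Sequences are from RefSeq on build GRCm38.p6, which is earlier than the build used for counting, and 35 of the 38 genes have an entry. Each run is the 250 bases upstream of the annotated start, 5′ to 3′ on the gene's own strand, which is the minus strand for all 3 genes. Capitals mark matches, on either strand, to GGGCGG (the GC box), CCAAT (the CCAAT box), TATAAA (the TATA box), AGGTCA (a hexamer bound by nuclear receptors) or CACGTG (the E box), and no matches overlap each other. The windows are chr3:69859895-69860144 for Sptssb, chr12:54656573-54656822 for Sptssa and chr11:72475028-72475277 for Spns2.
Sptssb: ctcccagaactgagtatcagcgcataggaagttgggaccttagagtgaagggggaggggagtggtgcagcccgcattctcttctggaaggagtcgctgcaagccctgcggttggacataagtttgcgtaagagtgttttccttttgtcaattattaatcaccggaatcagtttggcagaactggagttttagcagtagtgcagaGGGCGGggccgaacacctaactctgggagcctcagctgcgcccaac
Sptssa: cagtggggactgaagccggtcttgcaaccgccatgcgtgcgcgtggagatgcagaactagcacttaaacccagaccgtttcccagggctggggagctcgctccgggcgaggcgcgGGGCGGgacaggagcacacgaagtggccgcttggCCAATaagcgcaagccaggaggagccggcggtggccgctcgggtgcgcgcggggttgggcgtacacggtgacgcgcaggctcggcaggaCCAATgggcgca
Spns2: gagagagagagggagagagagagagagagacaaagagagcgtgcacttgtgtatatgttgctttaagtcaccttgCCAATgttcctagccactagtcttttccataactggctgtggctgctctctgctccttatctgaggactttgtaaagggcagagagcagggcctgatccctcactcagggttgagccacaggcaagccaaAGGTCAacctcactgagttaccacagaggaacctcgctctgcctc

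The Sptssb window holds 1 GC box, which starts 46 bases before the start site, and 0 matches to the other 4 motifs. The Sptssa window holds 1 GC box and 2 CCAAT boxes, and the Spns2 window 1 CCAAT box and 1 AGGTCA. Among 32851 RefSeq windows of the same length, 32.7% hold GGGCGG, 33.8% CCAAT, 12.4% TATAAA, 14.0% AGGTCA and 6.02% CACGTG. G and C make up 53.2% of the Sptssb window, 68.8% of the Sptssa window and 51.6% of the Spns2 window, against a median of 52.4% over all windows. A match describes the sequence only, since no factor binding was measured here.

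Serine palmitoyltransferase has a core of Sptlc1 with Sptlc2 or Sptlc3, and a small activating subunit, encoded by Sptssa or Sptssb, that also shifts which acyl-CoA the enzyme takes. Sptssb (ENSMUSG00000043461.14) had 52.0, 47.7 and 54.4 CPM with vehicle and 9.17, 9.98 and 10.3 CPM with palmitate. The palmitate libraries lay close together and far below every vehicle library. Sptssb fell from 51.4 ± 3.39 to 9.82 ± 0.583 CPM (mean ± SD of 3 libraries; log2 fold change -2.39 ± 0.0569 SE; edgeR adjusted p = 7.61e-53), the 21st lowest fold change of the 14987 tested genes. Across 13 alternative analyses its log2 fold change was between -2.44 and -2.34.

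Sptssa (ENSMUSG00000044408.8), the other small subunit, had 56.1, 54.9 and 54.6 CPM with vehicle and 53.4, 51.2 and 50.3 CPM with palmitate. Its vehicle libraries all lay above its palmitate libraries, by a small margin (log2 fold change -0.10 ± 0.0368 SE; edgeR adjusted p = 0.0222). That call was lost with DESeq2 (adjusted p = 0.163), when low genes were not filtered out (0.0571), and on leaving out vehicle replicate 1 (0.0754), palmitate replicate 2 (0.0703) or palmitate replicate 3 (0.126). Per kb of exon, which puts both genes on 1 scale, the Sptssb share of small-subunit message was 43.5, 42.0 and 45.3% in the vehicle libraries and 12.5, 14.0 and 14.6% in the palmitate libraries. Its share changed by -29.9 percentage points (exact permutation test, two-sided, p = 0.10, the smallest that 3 libraries against 3 can give). The small-subunit message was thus split nearly evenly with vehicle and was mostly Sptssa with palmitate.

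Sptlc2 (ENSMUSG00000021036.11), a catalytic subunit, had 130.1, 130.7 and 131.3 CPM with vehicle and 153.5, 150.8 and 153.3 CPM with palmitate. Every palmitate library lay above every vehicle library, and Sptlc2 rose (log2 fold change 0.22 ± 0.0236 SE; edgeR adjusted p = 1.10e-13). Its partner Sptlc1 (ENSMUSG00000021468.9) had 58.9, 57.4 and 55.9 CPM with vehicle and 62.5, 58.7 and 60.4 CPM with palmitate. The Sptlc1 groups overlapped and the gene was not called (log2 fold change 0.08, 95% interval 0.01 to 0.15, edgeR adjusted p = 0.0579). It was called without vehicle replicate 1 (adjusted p = 0.0391) or palmitate replicate 2 (0.0250) and with no count filter (0.0439).

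The ORMDL proteins of the endoplasmic reticulum bind serine palmitoyltransferase and restrain it when ceramide is plentiful. Ormdl3 (ENSMUSG00000038150.8) had 28.1, 28.1 and 28.5 CPM with vehicle and 34.3, 35.1 and 35.5 CPM with palmitate. The groups were well separated and Ormdl3 rose (log2 fold change 0.31 ± 0.0461 SE; edgeR adjusted p = 1.56e-08), the largest rise among the called sphingolipid genes. Ormdl1 (ENSMUSG00000026097.10) had 19.7, 21.2 and 20.5 CPM with vehicle and 22.0, 21.8 and 23.4 CPM with palmitate (log2 fold change 0.13 ± 0.0555 SE; edgeR adjusted p = 0.0496). Its groups lay close together without overlap, and its call sat at the threshold. It was lost without vehicle replicate 1 (adjusted p = 0.172), vehicle replicate 3 (0.0937), palmitate replicate 1 (0.0519) or palmitate replicate 3 (0.200), and with median-of-ratios scaling (0.0565), DESeq2 (0.226), limma-voom (0.0524) or thinned libraries (0.0555). Ormdl2 (ENSMUSG00000025353.6) had 51.1, 54.6 and 54.3 CPM with vehicle and 52.6, 55.6 and 55.6 CPM with palmitate. The Ormdl2 groups overlapped and it was not called (log2 fold change 0.03, 95% interval -0.04 to 0.11, edgeR adjusted p = 0.498). Ormdl2 was the most abundant of the 3 per kb in each group, with a share of 64.9 ± 0.615% with vehicle and 61.1 ± 0.458% with palmitate (mean ± SD of 3 libraries). The share of Ormdl3 was 26.3 ± 0.684% with vehicle and 30.0 ± 0.254% with palmitate (exact permutation p = 0.10 for both shares, the smallest possible).

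**Figure D2:**
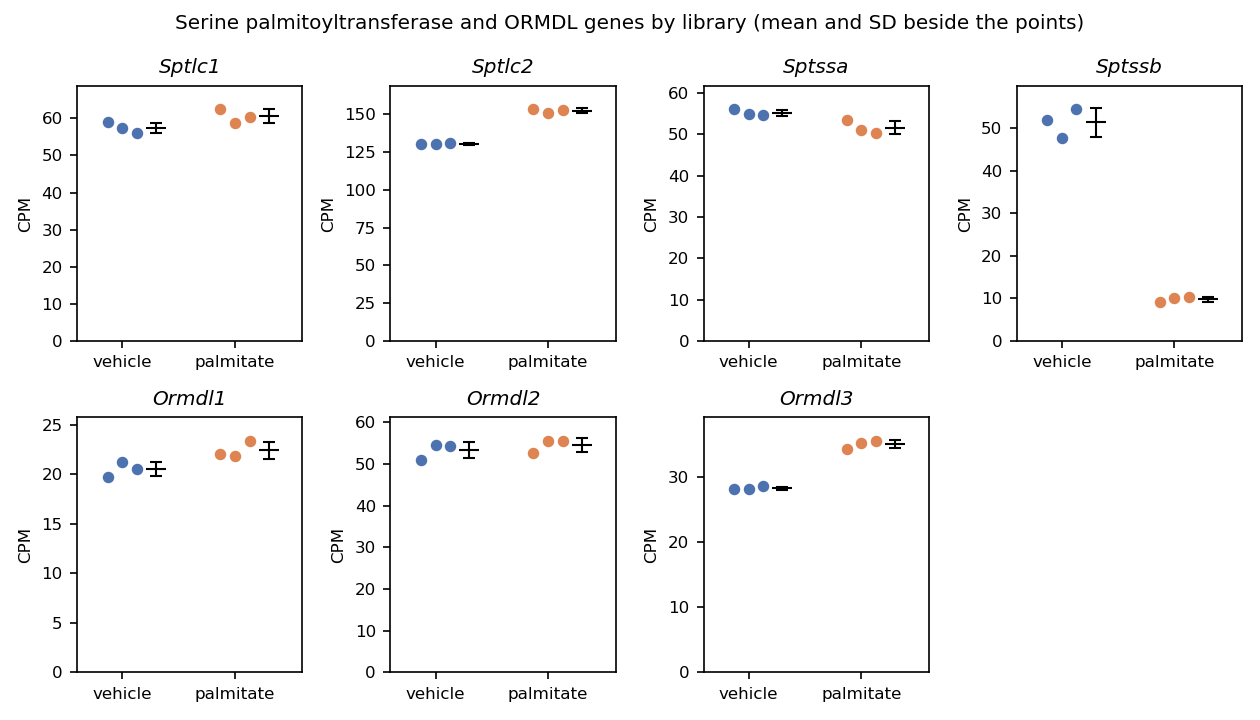
CPM (vertical axes, each from 0) of the serine palmitoyltransferase and ORMDL genes, vehicle beside palmitate, with 1 point per library and the mean and SD beside the points. Sptssb goes from a mean of 51.4 to 9.82 CPM, Sptlc2 and Ormdl3 lie higher with palmitate, and the groups of Sptlc1 and Ormdl2 overlap.

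Kdsr encodes the reductase that follows serine palmitoyltransferase, and the ceramide synthases then attach a fatty acid whose length depends on the enzyme. Kdsr had 25.0 ± 0.640 CPM with vehicle and 25.7 ± 0.429 CPM with palmitate and was not called (log2 fold change 0.04, 95% interval -0.06 to 0.14). Cers6 (ENSMUSG00000027035.11), which favours palmitoyl chains, had 160.5, 160.4 and 160.8 CPM with vehicle and 128.5, 131.1 and 125.8 CPM with palmitate. The vehicle libraries were almost equal and all far above the palmitate libraries, and Cers6 fell (log2 fold change -0.32 ± 0.0236 SE; edgeR adjusted p = 2.21e-21). The other 3 tested synthase genes were not called. Cers2, which favours very long chains, had 336.9 ± 2.98 CPM with vehicle and 342.6 ± 0.851 CPM with palmitate (log2 fold change 0.02, 95% interval -0.01 to 0.06). Cers5, which like Cers6 favours palmitoyl chains, had 122.8 ± 1.46 CPM with vehicle and 119.9 ± 1.88 CPM with palmitate (log2 fold change -0.04, 95% interval -0.09 to 0.02). Cers4 had 29.3 ± 2.74 CPM with vehicle and 31.3 ± 0.585 CPM with palmitate (log2 fold change 0.09, 95% interval -0.01 to 0.19), and leaving out vehicle replicate 2 made it a call (log2 fold change 0.17, edgeR adjusted p = 0.00807).

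Cers2 made up most of the ceramide synthase message per kb, with a share of 62.4 ± 0.171% with vehicle and 64.6 ± 0.171% with palmitate, and Cers6 held 12.3 ± 0.107% with vehicle and 10.0 ± 0.211% with palmitate (mean ± SD of 3 libraries; exact permutation p = 0.10 for both shares). Cers1 had 2, 8 and 4 counts with vehicle and 9, 4 and 5 with palmitate. Cers3 had 2, 1 and 0 counts with vehicle and 3, 5 and 3 with palmitate. Both were too low to be tested at this depth.

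Degs1 inserts the double bond that turns dihydroceramide into ceramide, Degs2 also makes phytoceramide, and Fa2h hydroxylates the fatty acid used. Degs1 had 90.4 ± 1.21 CPM with vehicle and 86.6 ± 3.22 CPM with palmitate. Its groups did not overlap but it was not called (log2 fold change -0.06, 95% interval -0.12 to -0.00, edgeR adjusted p = 0.0799), except without palmitate replicate 3 (adjusted p = 0.0488). Degs2 (ENSMUSG00000021263.12) was a low gene, with 3.05, 2.50 and 2.86 CPM with vehicle and 2.06, 2.13 and 2.29 CPM with palmitate (log2 fold change -0.37 ± 0.164 SE; edgeR adjusted p = 0.0497). The Degs2 groups did not overlap, but its call was lost in 10 of 13 alternatives. It was lost without vehicle replicate 1 (adjusted p = 0.155), vehicle replicate 3 (0.114), palmitate replicate 1 (0.122), palmitate replicate 2 (0.0984) or palmitate replicate 3 (0.0572). It was also lost with no count filter (0.0794), DESeq2 (0.233), limma-voom (0.0606), the replicate block (0.0520) and a minimum change of 1.2-fold. Degs1 held 97.0 ± 0.294% with vehicle and 97.6 ± 0.0704% with palmitate of the message of this pair per kb. Fa2h was lower still, with 0.362 ± 0.123 CPM with vehicle and 0.504 ± 0.171 CPM with palmitate, and at this depth its interval was wide (log2 fold change 0.45, 95% interval -0.304 to 1.2001).

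Sphingomyelinases release ceramide from sphingomyelin, and Smpd3 (ENSMUSG00000031906.10) encodes a neutral enzyme of the Golgi and plasma membrane. It had 222.4, 221.0 and 227.8 CPM with vehicle and 129.4, 131.1 and 136.0 CPM with palmitate. No palmitate library came near a vehicle library, and Smpd3 fell from 223.7 ± 3.597 to 132.2 ± 3.42 CPM (mean ± SD of 3 libraries; log2 fold change -0.76 ± 0.0225 SE; edgeR adjusted p = 1.66e-47). Smpd2 (ENSMUSG00000019822.13), another neutral sphingomyelinase, had 19.7, 19.9 and 20.6 CPM with vehicle and 14.8, 15.7 and 14.8 CPM with palmitate. It fell too, with separate groups (log2 fold change -0.41 ± 0.0607 SE; edgeR adjusted p = 1.16e-08). Smpd4 (ENSMUSG00000005899.15), a neutral sphingomyelinase of the nuclear envelope and endoplasmic reticulum, had 65.0, 70.7 and 64.0 CPM with vehicle and 75.4, 71.3 and 73.5 CPM with palmitate. It rose slightly, its lowest palmitate library just above its highest vehicle library (log2 fold change 0.14 ± 0.0341 SE; edgeR adjusted p = 3.33e-04). Smpd1, the acid enzyme of the lysosome, had 29.8 ± 1.63 CPM with vehicle and 28.1 ± 0.543 CPM with palmitate and was not called (log2 fold change -0.08, 95% interval -0.18 to 0.02). The share of Smpd3 in the sphingomyelinase message per kb changed from 67.3 ± 0.900% to 55.9 ± 0.561% (mean ± SD of 3 libraries; exact permutation p = 0.10, the smallest possible).

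The sphingomyelin synthases make sphingomyelin from ceramide, Sgms1 in the Golgi and Sgms2 mostly at the plasma membrane, and their genes moved apart. Sgms1 (ENSMUSG00000040451.19) had 101.3, 101.9 and 96.6 CPM with vehicle and 109.3, 109.8 and 110.3 CPM with palmitate. It rose, with all palmitate libraries above all vehicle libraries (log2 fold change 0.14 ± 0.0274 SE; edgeR adjusted p = 1.42e-05). Sgms2 fell from 102.1 ± 1.99 to 95.0 ± 1.32 CPM (mean ± SD of 3 libraries; log2 fold change -0.10 ± 0.0280 SE; edgeR adjusted p = 0.00115). The share of Sgms2 per kb changed from 63.4 ± 1.12% to 59.4 ± 0.289%.

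Ugcg makes glucosylceramide, the first step to most sugar-bearing sphingolipids. Ugcg (ENSMUSG00000028381.9) had 180.9, 185.5 and 184.3 CPM with vehicle and 162.2, 158.2 and 157.2 CPM with palmitate. The groups were separate and Ugcg fell (log2 fold change -0.21 ± 0.0222 SE; edgeR adjusted p = 2.22e-13). Galc (ENSMUSG00000021003.11), the lysosomal enzyme that removes galactose from galactosylceramide, had 104.8, 104.7 and 100.6 CPM with vehicle and 119.6, 116.9 and 119.5 CPM with palmitate. It rose, again with separate groups (log2 fold change 0.20 ± 0.0266 SE; edgeR adjusted p = 5.14e-10). Neither the non-lysosomal glucosylceramidase gene Gba2 (log2 fold change 0.02, 95% interval -0.12 to 0.15) nor the ceramide kinase gene Cerk (log2 fold change -0.01, 95% interval -0.08 to 0.06) was called.

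Ceramidases cut ceramide to sphingosine and a fatty acid. Asah1 (ENSMUSG00000031591.15), the acid ceramidase of the lysosome, had 318.7, 318.3 and 325.0 CPM with vehicle and 374.2, 361.3 and 375.5 CPM with palmitate. It rose, with every palmitate library above every vehicle library (log2 fold change 0.21 ± 0.0184 SE; edgeR adjusted p = 4.23e-17), and it had the highest level per kb of the 37 genes in both groups. With vehicle its mean per kb was 94.6, near the 91.6 of Cers2. In CPM, with no length correction, Cers2 was the higher of these with vehicle (336.9 against 320.7). Asah2 (ENSMUSG00000024887.11), the neutral ceramidase of the cell surface, had 81.6, 82.3 and 83.4 CPM with vehicle and 74.5, 70.4 and 73.1 CPM with palmitate. It fell, with separate groups (log2 fold change -0.18 ± 0.0313 SE; edgeR adjusted p = 4.95e-07). The alkaline ceramidase gene Acer3 had 125.2 ± 0.611 CPM with vehicle and 123.5 ± 2.15 CPM with palmitate and was not called (log2 fold change -0.02, 95% interval -0.07 to 0.03). Acer2, an alkaline ceramidase gene of the Golgi, had 2, 3 and 4 counts with vehicle and 9, 6 and 8 with palmitate, too few to be tested. Asah1 held 86.1 ± 0.0623% with vehicle and 88.4 ± 0.0855% with palmitate of the ceramidase message per kb.

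All 6 genes that make, reverse, break down or export sphingosine phosphate were called, 2 higher and 4 lower, where 52.8% of all tested genes were called, 27.4% higher and 25.4% lower. With DESeq2 both higher calls, Sphk1 and Sgpp1, were lost. Spns2 (ENSMUSG00000040447.16), the exporter, had 14.96, 16.47 and 15.23 CPM with vehicle and 11.59, 10.16 and 10.61 CPM with palmitate. It fell to levels below every vehicle library (log2 fold change -0.53 ± 0.0714 SE; edgeR adjusted p = 7.01e-10). Sgpl1 (ENSMUSG00000020097.15), the lyase that ends the pathway, had 233.3, 225.0 and 226.0 CPM with vehicle and 211.3, 210.0 and 203.1 CPM with palmitate. It fell by less, and its groups were separate (log2 fold change -0.13 ± 0.0209 SE; edgeR adjusted p = 8.46e-08).

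The phosphatases of this group return sphingosine phosphate to sphingosine. Sgpp2 (ENSMUSG00000032908.10) had 56.9, 60.6 and 63.7 CPM with vehicle and 47.8, 50.1 and 49.1 CPM with palmitate, and it fell, with separate groups (log2 fold change -0.30 ± 0.0377 SE; edgeR adjusted p = 4.94e-11). Sgpp1 (ENSMUSG00000021054.7) had 32.2, 30.8 and 32.9 CPM with vehicle and 33.4, 34.7 and 35.4 CPM with palmitate (log2 fold change 0.11 ± 0.0456 SE; edgeR adjusted p = 0.0357). The Sgpp1 groups nearly touched. Its call was lost without vehicle replicate 1 (adjusted p = 0.0565), vehicle replicate 2 (0.187), palmitate replicate 2 (0.0683) or palmitate replicate 3 (0.131), and with thinned libraries (0.139) or DESeq2 (0.187).

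The kinases that make sphingosine phosphate also moved in opposite directions. Sphk2 (ENSMUSG00000057342.16), the kinase found in the nucleus and mitochondria, had 51.2, 49.3 and 46.8 CPM with vehicle and 42.1, 44.8 and 41.8 CPM with palmitate. It fell, with separate groups (log2 fold change -0.19 ± 0.0403 SE; edgeR adjusted p = 3.09e-05). Sphk1, the mainly cytosolic kinase, had 44.9 ± 0.824 CPM with vehicle and 47.8 ± 1.75 CPM with palmitate (mean ± SD of 3 libraries; log2 fold change 0.09 ± 0.0394 SE; edgeR adjusted p = 0.0449). Its call was lost without vehicle replicate 1 (adjusted p = 0.0849), vehicle replicate 3 (0.152), palmitate replicate 1 (0.112) or palmitate replicate 3 (0.167), and with median-of-ratios scaling (0.0541), thinned libraries (0.0771) or DESeq2 (0.199).

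**Figure D3:**
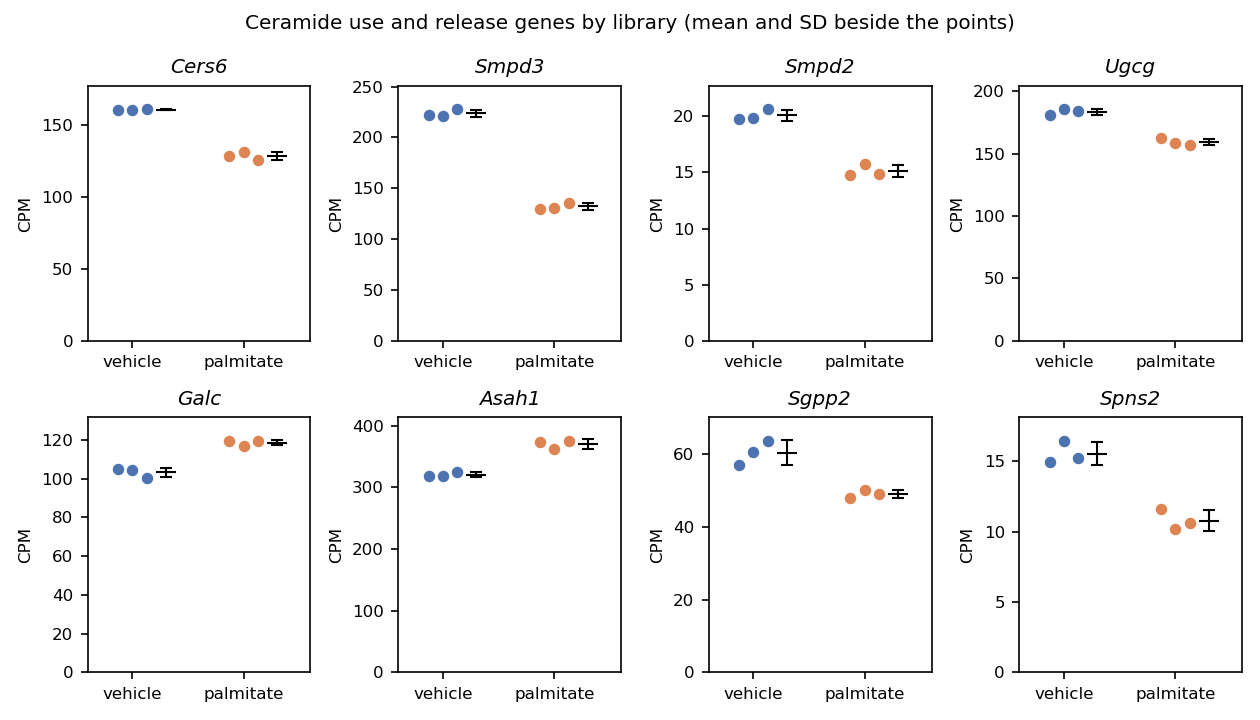
CPM (vertical axes, each from 0) of 8 genes of ceramide synthesis, conversion and release and of sphingosine phosphate handling, vehicle beside palmitate, with 1 point per library and the mean and SD beside the points. Cers6, Smpd3, Smpd2, Ugcg, Sgpp2 and Spns2 lie lower in all 3 palmitate libraries than in any vehicle library, and Galc and Asah1 higher.

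Shares within enzyme families were compared between the groups. Of 27 shares in 9 families, 22 did not overlap between the groups. In 5 of the families there are only 2 genes, whose shares mirror each other, and with 1 share for each such pair 17 of 22 did not overlap. The levels of 57.8% of all tested genes did not overlap, but a level is a different measure from a share. Shares of a family add up to the whole, so a change in 1 gene moves the others. The share of Smpd1 changed by 4.58 percentage points without overlap, though Smpd1 itself was not called. The shares of Cers3 and Acer2, too low to be tested, are also among those without overlap. The smallest exact permutation p that any share could reach was 0.10. The shares that overlapped were those of Ormdl1, Cers1, Cers4, Cers5 and Smpd2. The share of Sphk2 among the kinases changed from 55.7 ± 0.987% to 50.8 ± 1.85%, and that of Sgpp2 among the phosphatases from 72.7 ± 1.16% to 66.7 ± 0.501% (mean ± SD of 3 libraries). After the small subunits, the widest shifts were those of Smpd3 (-11.4 percentage points), Smpd4 (6.39) and the phosphatases (5.97 for Sgpp1 and -5.97 for Sgpp2).

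**Figure D4:**
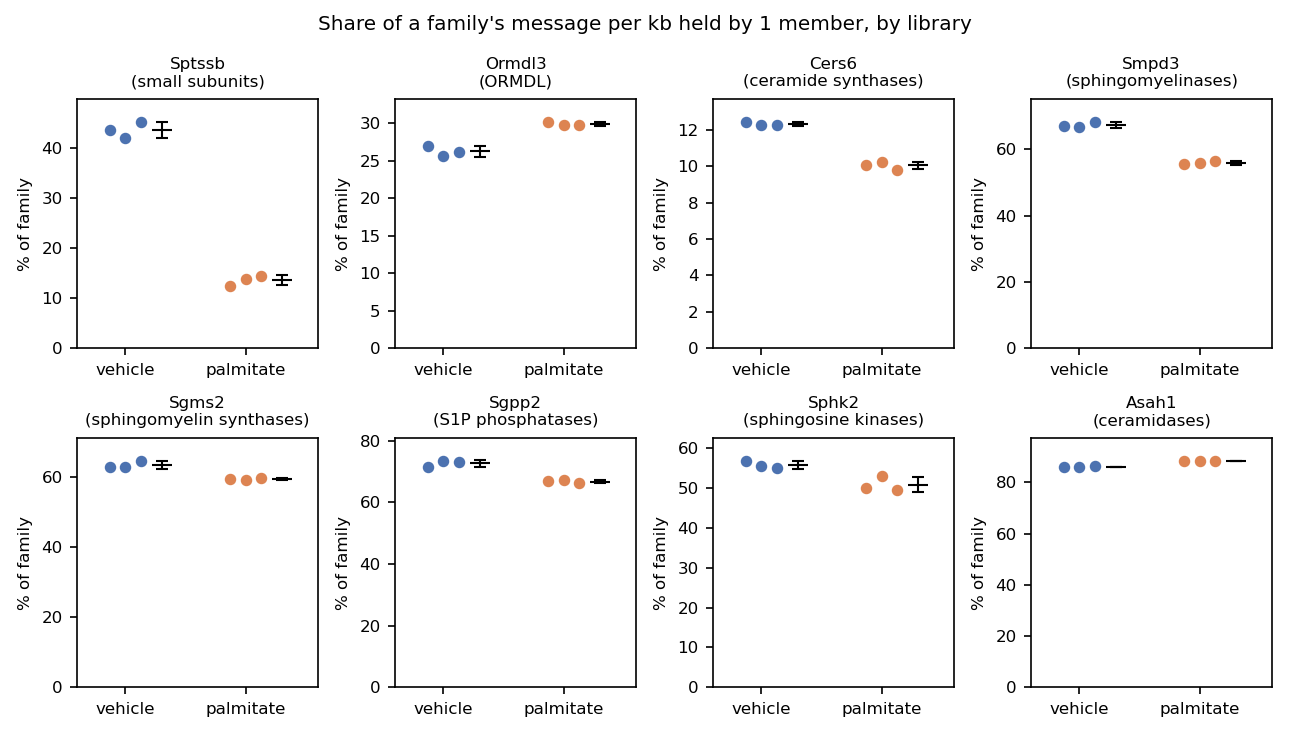
Share of a family's summed CPM per kb held by 1 member (vertical axes, percent, each from 0), vehicle beside palmitate, with 1 point per library and the mean and SD beside the points. The Sptssb share goes from 43.6 ± 1.66% to 13.7 ± 1.06%, and the other 7 shares change by -11.4 (Smpd3) to 3.68 (Ormdl3) percentage points, with no overlap between groups in any panel.

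Genes further along the pathway were read from lists of 43 related genes. Of these, 30 could be tested, and 12 were called higher (40.0%, against 27.4% of all tested genes) and 8 lower (26.7%, against 25.4%), with a median log2 fold change of 0.08. DESeq2 called 9 of them higher and 7 lower, where it called 20.6% and 16.9% of all tested genes. Among genes that add sugars, sialic acid or sulfate, 3 of 6 tested were higher (27.4% of all tested genes) and 2 lower (25.4% of all tested genes). One of the 3, the sulfotransferase gene Gal3st1, lost its call without vehicle replicate 3 (adjusted p = 0.184) or palmitate replicate 3 (0.0626) and with DESeq2 (0.121). B4galt6, a lactosylceramide synthase gene, fell from 108.2 ± 2.06 to 84.9 ± 4.13 CPM (mean ± SD of 3 libraries; log2 fold change -0.35 ± 0.0295 SE; edgeR adjusted p = 4.32e-18). B4galt5, whose product catalyses the same step, fell by less (log2 fold change -0.12). The ganglioside synthase genes St3gal5 (log2 fold change 1.52, from 0.524 ± 0.0605 to 1.52 ± 0.195 CPM) and B4galnt1 (0.25) rose.

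Among genes of lysosomal breakdown 5 of 10 tested were higher (27.4% of all tested genes) and 2 lower (25.4% of all tested genes). The call of the sulfatase gene Arsa was lost without vehicle replicate 3 (adjusted p = 0.0505) or palmitate replicate 1 (0.0553) and with DESeq2 (0.124). That of the sialidase gene Neu1 was lost without vehicle replicate 1 (adjusted p = 0.139), vehicle replicate 2 (0.0836), palmitate replicate 1 (0.0907) or palmitate replicate 3 (0.0522), and with median-of-ratios scaling (0.0540), thinned libraries (0.0709) or DESeq2 (0.162). Gm2a, the activator that presents a ganglioside to hexosaminidase, rose from 85.1 ± 3.99 to 140.5 ± 2.56 CPM (mean ± SD of 3 libraries; log2 fold change 0.73 ± 0.0277 SE; edgeR adjusted p = 5.58e-39). Psap, the precursor of the saposins, also rose (log2 fold change 0.20). Hexa, the hexosaminidase subunit served by that activator, fell from 148.0 ± 1.05 to 106.6 ± 3.82 CPM (mean ± SD of 3 libraries; log2 fold change -0.47 ± 0.0255 SE; edgeR adjusted p = 2.05e-29). The galactosidase gene Glb1 fell as well (log2 fold change -0.16).

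Among transfer proteins 2 of 7 tested were higher (28.6%, against 27.4% of all tested genes) and 1 lower (14.3%, against 25.4%), so calls were no more frequent than among all genes. Cert1, which carries ceramide from the endoplasmic reticulum to the Golgi for sphingomyelin synthesis, fell from 66.4 ± 0.488 to 55.0 ± 1.63 CPM (mean ± SD of 3 libraries; log2 fold change -0.27 ± 0.0348 SE; edgeR adjusted p = 1.34e-10). Gltp (log2 fold change 0.30) and Plekha8 (0.16), which bind glycolipids, rose. Of the sphingosine phosphate receptor genes only S1pr2 had enough counts for a test, and it fell from 16.2 ± 0.714 to 13.6 ± 0.331 CPM (log2 fold change -0.26). S1pr1 and S1pr4 were below the count filter, and S1pr3 and S1pr5 were not analysed here.

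Of the other enzymes 2 of 6 tested were higher and 2 lower (33.3% each, near the 27.4% and 25.4% of all tested genes). Aldh3a2, which oxidises the fatty aldehyde left by the lyase, rose (log2 fold change 0.16), as did the reductase gene Tecr (0.13), while the protein palmitoyltransferase gene Zdhhc9 fell (-0.23). Samd8, a relative of the sphingomyelin synthases, was called lower (log2 fold change -0.12), though its groups overlapped. Its vehicle replicate 1, at 45.29 CPM, lay just below palmitate replicate 1, at 45.37 CPM. The Samd8 call was lost without vehicle replicate 2 (adjusted p = 0.0609) or palmitate replicate 2 (0.0560) and with DESeq2 (0.104).

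In the authors' deposited table, 17 of the 34 tested sphingolipid genes had a q-value under 0.05, against 37.3% of the 14987 genes tested here. Of the 17, 6 were higher in the authors' deposited table (20.6% of those genes) and 11 lower (16.8% of those genes). All 17 were among the 22 called here, with the same direction, and the other 5 were Sptssa, Ormdl1, Degs2, Sphk1 and Sgpp1. The authors' deposited table gave Sptssb a log2 fold change of -2.38, and no tested sphingolipid gene's value in it differed by more than 0.0197 from the value here. The authors' deposited table of gene sets lists sphingolipid metabolism, with 49 genes, as Down with a normalised enrichment score of -1.01 and a q-value of 0.687. Of the 38 genes followed here 31 belong to that set. Sptssa, Sptssb, Ormdl1, Ormdl2, Ormdl3, Fa2h and Spns2 do not, so Sptssb did not enter that score. Of the 9 genes at the leading edge of the set in the authors' deposited table, 7 are among the 38, namely Smpd3, Cers6, Ugcg, Sgpp2, Smpd2, Sgpl1 and Asah2.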

How the data were processed

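Poly(A) RNA of 6 samples was made into strand-marking libraries, per the labels' protocols, and groups came from the sample titles. The submitters' processing notes name FastQC 0.11.8, STAR 2.6.1, HTSeq, DESeq2 1.34.0 and build mm39. The authors deposited raw counts per gene, used here as they stand. The sources used here do not say if reads were counted by strand, so overlapping genes may share reads. The authors' deposited comparison gives log2 fold changes, p-values, q-values and a ranking score, and their gene set table gives enrichment scores, per the column descriptions.

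The deposited counts were analysed with edgeR 4.0.16 under R 4.3.3 (TMM, filterByExpr with a minimum count of 10, robust glmQLFit, glmQLFTest, Benjamini-Hochberg adjustment). A standard error is the size of the log2 fold change over the square root of F, and intervals are 95%. The genes and lists were chosen with earlier results of these data known. Values by library are given for serine palmitoyltransferase and ORMDL genes and for the 15 other called genes with the greatest change, and related lists name up to 4 called genes each, by smallest p; Gal3st1, Arsa and Neu1 are named besides, chosen after their values were seen. Exon lengths came from Gencode M21 by Ensembl identifier (37 of 37 matched), an earlier release than that of the counts. They cover all annotated exons of a gene, whether or not these cells use them. The size of a share per kb depends on this choice. Among the ceramidases, for example, the lengths were 3.39 kb for Asah1, 11.6 kb for Asah2 and 15.3 kb for Acer3. Alternatives were RLE scaling (median of ratios), testing all genes unfiltered, DESeq2 1.42.0, limma-voom (limma 3.58.1), glmTreat at 1.2-fold, a replicate block, leaving out each library, shares with no length correction and, added after seeing the data, thinning to the shallowest library. Scripts were tested on simulated data. Libraries within a group differed by slightly more than counting noise (chi-square over degrees of freedom 1.202 to 1.379). The common coefficient of variation beyond counting noise was only 1.28% in edgeR. These values do not show whether the libraries came from separate cultures, and small p-values rest on this narrow spread. Each library was kept as a replicate. Permutation tests used scipy 1.17.1, and figures matplotlib 3.10.9 in Python 3.11.15.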

Additional observations from a re-analysis of the deposited data

How the results depend on the processing

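Of the 22 called genes, 17 kept their call and direction in every alternative except glmTreat, and Sptssa, Ormdl1, Degs2, Sphk1 and Sgpp1 did not. With glmTreat against 1.2-fold, 0 sphingolipid genes were higher and 5 lower, 968 of all tested genes were higher and 1307 lower, and 2 related pathway genes were higher and 2 lower; a minimum fold leaves fewer by construction. DESeq2 called 6 sphingolipid genes higher and 11 lower, and leaving out a library gave 6 to 9 higher and 11 to 13 lower. Calls over all genes also became fewer on leaving out a library. They were 3738 to 3908 higher and 3475 to 3572 lower, against 4110 and 3805 with every library. The median log2 fold change of the sphingolipid genes, -0.0162, was -0.00672 with no count filter and -0.0360 after thinning, and -0.0298 to -0.00490 when a library was left out (the lowest without vehicle replicate 1, the highest without vehicle replicate 2); the cause was not tested. For Cerk, which was not called, leaving out a library gave log2 fold changes of -0.0473 to 0.0154. With no length correction the change in share was -0.0787 percentage points for Ormdl1 and 0.360 for Cers5, against 0.0532 and -0.130 per kb. Leaving out a library gave -0.0519 to 0.217 for Ormdl1, -0.267 to 0.0117 for Cers5 and -0.00331 to 0.0273 for Cers1, whose shares all overlapped between the groups; the cause was not tested. The deviations of same-numbered libraries from their group means had correlations of -0.00448 to 0.00846, and those of differently numbered libraries -0.0195 to 0.0121. Libraries of a group differed by little more than counting noise, so these values cannot tell whether replicate numbers pair the samples. With the replicate block 9 sphingolipid genes were higher and 12 lower, and 4112 of all tested genes were higher and 3821 lower. Depth limits Fa2h, Degs2, Cers1, Cers3 and Acer2, which had few counts. It also limits the related gene St3gal5, which had 9, 13 and 11 counts with vehicle and 39, 31 and 33 with palmitate.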
